A study of Mus musculus with 16 samples.

Results

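Retinas of mice with oxygen-induced retinopathy (OIR) were compared with control retinas at postnatal day 17 (P17), the phase of abnormal vessel growth in this model. The comparison uses 6 of the series' 16 libraries, 3 labelled OIR and 3 labelled control at P17, chosen by the condition and age in their titles. The other 10 libraries are OIR and control retinas at P14 (2 each) and P30 (3 each). They entered the fit to estimate the spread between libraries and gave the values at other ages at the end. OIR mice had breathed 75% oxygen from day 7 to day 12 and then room air with 21% oxygen until day 17. Control mice of the same age had stayed in room air. Mice of both groups were wild-type C57BL/6J in the labels, and the RNA came from freshly dissected retina. The labels do not say whether a library is 1 animal or a pool, so p-values measure the spread between these libraries, which may be technical.

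In OIR, oxygen-rich air halts the growth of the young retinal vessels and prunes part of the central network. When the pup returns to room air, the retina left without vessels becomes short of oxygen. Cells sense this through the hypoxia-inducible factors (HIF), transcription factors that prolyl hydroxylases of the Egln family mark for destruction while oxygen is present. Stabilised HIF turns on genes for vessel growth and for glycolysis, and vessels then grow as tufts towards the vitreous. Muller glia span the retina and respond to stress with intermediate filaments and acute-phase proteins, and microglia are the resident macrophages.

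Library totals at P17 were 34996878 to 41716971 counted reads in OIR and 27369064 to 35483173 in controls. Levels are given as CPM (counts scaled by library size and the trimmed-mean method of edgeR). Markers of the retinal cell types were present in every library, among them rod arrestin (Sag) at 4246 to 4684 CPM in OIR and 4323 to 6377 CPM in controls. Some library properties separated the groups. Xist, which coats the inactive X chromosome, stood at 114, 140.0 and 158 CPM in OIR replicates 1, 2 and 3, against 0.0775, 0.0286 and 0.104 CPM in control replicates 1, 2 and 3. The Y-linked Ddx3y had 0, 1 and 0 reads in OIR, and 33.3, 25.8 and 27.1 CPM in controls; in an OIR library 3 reads would amount to 0.0677 to 0.0858 CPM. Presence of Y-linked RNA and OIR therefore cannot be told apart at P17. A fit with a term for Y-linked RNA (Ddx3y at 5 CPM or more) draws on 2 further libraries with Ddx3y below that level, a control at P14 (replicate 2) and an OIR retina at P30 (replicate 2). Lens genes took 8.63%, 6.32% and 0.390% of counts in OIR replicates 1, 2 and 3, against 0.0421%, 0.659% and 0.528% in controls. The summed level of 9 red blood cell genes was 603 to 1894 CPM in OIR and 326 to 529 CPM in controls, and that of 14 pigment epithelium genes was 611 to 999 CPM in OIR and 885 to 984 CPM in controls. Hbb-bs, an adult globin gene, did not overlap between the groups (233 to 791 CPM in OIR, 97 to 159 CPM in controls), nor did Rpe65, the visual cycle isomerase of the pigment epithelium (34.6 to 51.5 CPM in OIR, 62.8 to 91.7 CPM in controls), and neither passed the test. The muscle gene Acta1 did not overlap between the groups either, at 3 to 4.94 CPM in OIR and 6.61 to 7.93 CPM in controls. The summed level of 14 muscle genes did overlap, at 17.1 to 19.9 CPM in OIR and 13.8 to 19.8 CPM in controls. The 2 further libraries behind the term for Y-linked RNA also had unusual values. Control P14 replicate 2 had Xist at 913 CPM, against 105 CPM in OIR P30 replicate 2. Its summed pigment epithelium level was 1354 CPM, against 529 CPM in control P14 replicate 1. OIR P30 replicate 2 had a lens share of 8.37%, against 3.69% and 3.90% in OIR P30 replicates 1 and 3. The part of all these library properties in the results was not tested beyond the fits named below.

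**Figure D1:**
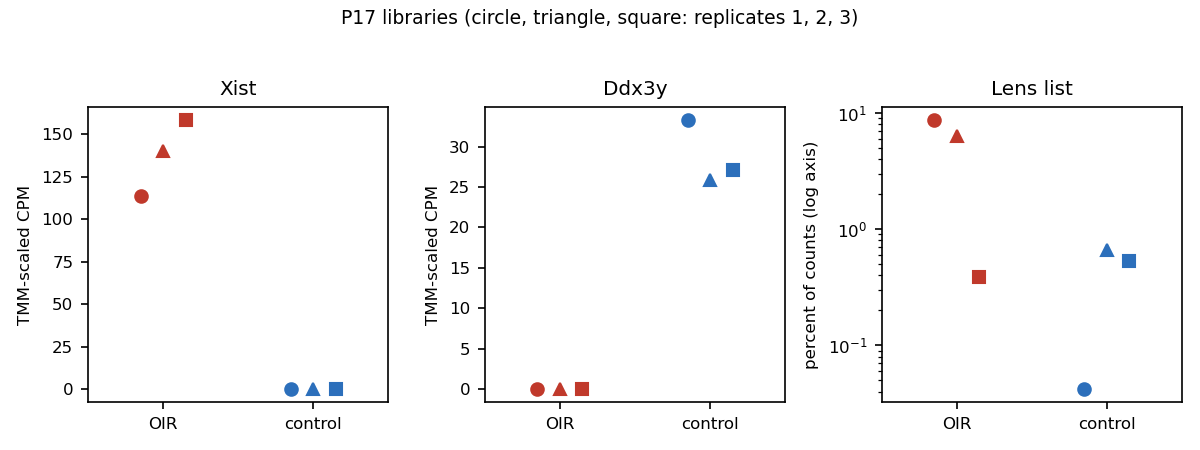
Xist and Ddx3y (scaled CPM) and the share of counts in the lens list (percent, log axis) in the 3 OIR and 3 control libraries at P17. Xist was high and Ddx3y at or near 0 in every OIR library, the controls showed the opposite, and the lens share was highest in OIR replicates 1 and 2.

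The quasi-likelihood test of edgeR, adjusted by Benjamini-Hochberg over the 19905 genes tested, was used for every adjusted p below. By it, 1555 genes (7.81%) were called higher in OIR and 1345 (6.76%) lower at an adjusted p under 0.05. The rises were the larger changes. Of the higher genes, 748 (3.76% of those tested) rose by more than 2-fold, 235 by more than 4-fold and 64 by more than 8-fold. Of the lower genes, 100 (0.502%) fell by more than 2-fold, 20 by more than 4-fold and 6 by more than 8-fold. The median log2 fold change was 0.96 in the higher genes, -0.47 in the lower genes and 0.00027 in all tested genes. Higher genes also stood at lower levels, with a median of 7.93 CPM over the 6 libraries, against 34.8 CPM for lower genes and 12.4 CPM for all tested genes. OIR and control libraries did not overlap in 1503 of the higher and 1326 of the lower genes, and among all tested genes that was so in 3168 (15.9%) with OIR higher and 3311 (16.6%) with OIR lower. With the term for Y-linked RNA 205 genes (1.03%) were higher and 84 (0.422%) lower, 204 and 83 of them among the calls without it. Of the 2900 called genes 2897 kept their sign under that term; the median ratio of the log2 fold change to that without it was 0.901, and that of the standard error (SE) 1.54. OIR replicate 3 alone, without the OIR libraries rich in lens RNA, gave 824 higher and 414 lower genes (6.01% of those tested in either direction), a fit with the lens share as a covariate gave 1108 higher (5.57%) and 1080 lower (5.43%), and without OIR replicate 3 there were 737 lower genes. In whole tissue a lower value can reflect fewer cells of a type or less RNA per cell, which cannot be told apart.

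**Figure D2:**
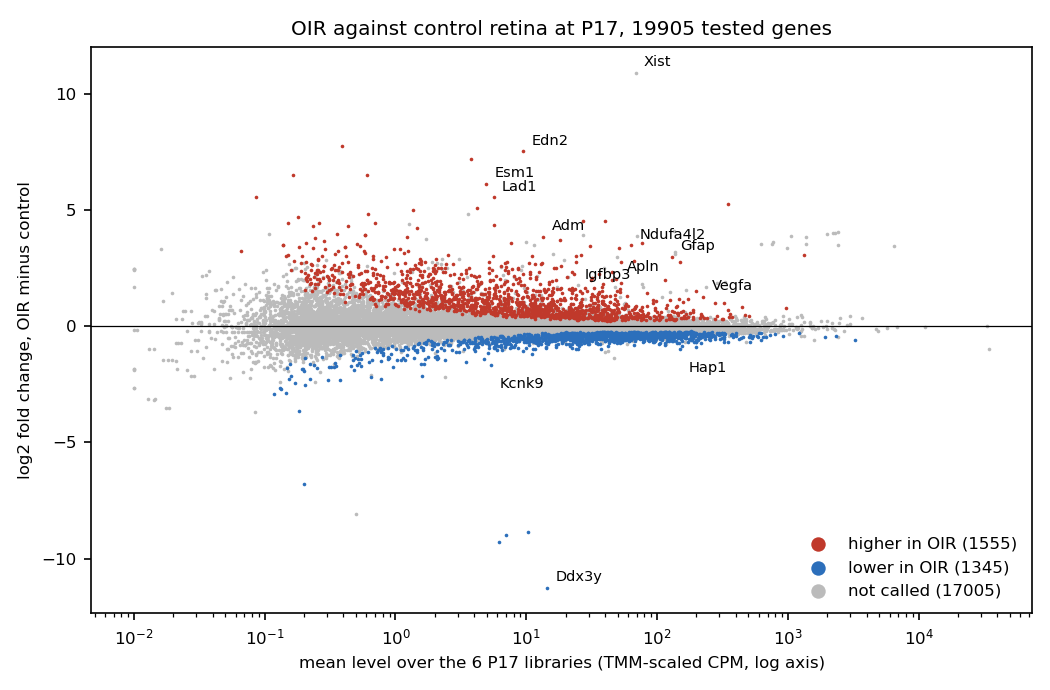
Log2 fold change (OIR minus control) against the mean level over the 6 P17 libraries (scaled CPM, log axis) for 19905 tested genes, with 1555 called higher in red, 1345 called lower in blue and the rest in grey. Rises reach further than falls, apart from the Y-linked genes at the bottom, whose fitted fold changes rest on almost no reads in OIR.

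Of 10 tested HIF subunits and oxygen sensors, 2 were higher, 1 was lower and 7 were not called. Both higher genes encode prolyl hydroxylases, which mark HIF for decay when oxygen is present. The lower gene was Arnt2, a partner subunit of HIF (log2 fold change -0.37, SE 0.0967, adjusted p = 0.015), whose call ended without control replicate 1 or 3, without OIR replicate 3, with OIR replicate 3 as the only OIR library and with the term for Y-linked RNA, while 2 were lower without OIR replicate 1. Egln3 stood at 22.1, 13.9 and 26.6 CPM in OIR, against 3.54, 4.15 and 4.67 CPM in controls, a log2 fold change of 2.34 (SE 0.221, adjusted p = 5.29e-06). Egln1, the main HIF hydroxylase in most tissues, stood at 270.4, 182 and 237 CPM in OIR, against 135, 152 and 145 CPM in controls. The libraries of the groups did not overlap for either gene, and the log2 fold change of Egln1 was 0.67 (SE 0.114, adjusted p = 0.0007). The promoter windows below, 250 bases before to 50 bases after the transcription start from RefSeq (GRCm38.p6), are shown because they belong to genes called higher here and hold the core of the hypoxia response element, ACGTG or its reverse complement CACGT, in capitals; each is written 5′ to 3′ on the strand of the gene. They are Egln3 (chr12:54203825-54204124, minus strand), Bnip3 (chr7:138909457-138909756, minus strand) and Slc16a3 (chr11:120948817-120949116, plus strand).
Egln3: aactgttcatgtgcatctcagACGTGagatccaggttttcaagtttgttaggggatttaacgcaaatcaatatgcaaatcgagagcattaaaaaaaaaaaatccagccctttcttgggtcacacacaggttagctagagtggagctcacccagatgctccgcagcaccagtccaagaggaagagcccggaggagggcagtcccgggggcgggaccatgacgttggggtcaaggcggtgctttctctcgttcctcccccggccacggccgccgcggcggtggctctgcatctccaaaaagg
Bnip3: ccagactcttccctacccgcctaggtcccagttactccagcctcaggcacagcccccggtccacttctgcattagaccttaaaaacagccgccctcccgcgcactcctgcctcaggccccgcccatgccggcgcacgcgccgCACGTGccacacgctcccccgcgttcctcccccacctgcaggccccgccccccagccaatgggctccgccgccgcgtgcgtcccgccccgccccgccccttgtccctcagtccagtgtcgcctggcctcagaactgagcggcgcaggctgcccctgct
Slc16a3: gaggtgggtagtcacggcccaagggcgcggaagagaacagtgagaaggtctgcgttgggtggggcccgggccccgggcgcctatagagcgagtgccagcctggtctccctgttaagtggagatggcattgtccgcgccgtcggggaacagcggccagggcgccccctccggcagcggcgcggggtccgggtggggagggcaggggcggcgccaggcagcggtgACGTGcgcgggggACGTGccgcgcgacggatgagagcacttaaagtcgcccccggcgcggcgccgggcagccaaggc
The core lies 229 bases before the start in Egln3 and 27 and 14 bases before it in Slc16a3, and in Bnip3 the letters of both strands overlap 108 and 107 bases before it. Among genes with 1 listed start, ACGTG on either strand occurred in 19.4% of 22862 windows, in 24.4% of 9867 windows of tested genes, in 23.8% of 880 windows of called higher genes and in 21.3% of 701 windows of called lower genes. It occurred in 12 of 17 windows (70.6%) of tested HIF target genes outside glycolysis and in 7 of 14 windows (50%) of tested glycolysis genes. These lists hold genes long described as HIF targets, so the share is a description of the lists and of the letters in this window.

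HIF targets outside glycolysis rose in 20 of 31 tested genes, with a median log2 fold change of 0.70. Ndufa4l2, a mitochondrial protein that replaces a subunit of cytochrome oxidase in hypoxia, stood at 118, 88.7 and 144 CPM in OIR, against 9.55, 11.4 and 10.3 CPM in controls. Adm, which encodes the vasodilator peptide adrenomedullin, stood at 29.5, 12.8 and 33.2 CPM in OIR, against 1.47, 2.06 and 1.7 CPM in controls. In both genes OIR replicate 2 was the lowest OIR library and still lay far above every control. Their log2 fold changes were 3.49 (SE 0.229, adjusted p = 1.10e-06) and 3.85 (SE 0.347, adjusted p = 9.74e-06). Ero1l, an oxidase of the endoplasmic reticulum, rose by 1.24 (SE 0.122, adjusted p = 5.68e-06), Bnip3, a mitophagy receptor, by 1.19 (SE 0.13, adjusted p = 1.79e-05) and Bhlhe40, a transcriptional repressor, by 0.88 (SE 0.112, adjusted p = 6.10e-05) on the log2 scale. Vegfa, the main growth factor of retinal vessels, stood at 347, 245 and 369 CPM in OIR, against 139.7, 126 and 132 CPM in controls. Its OIR libraries did not overlap the controls, and the log2 fold change was 1.27 (SE 0.151, adjusted p = 4.29e-05). Lox, a collagen cross-linking enzyme, did not pass (log2 fold change 0.70, SE 0.233, adjusted p = 0.0514), nor did Cited2, a HIF-induced competitor for the coactivator p300 (-0.28, SE 0.097, adjusted p = 0.0576). Under the term for Y-linked RNA, 9 of the 20 calls remained; the calls of Ndufa4l2, Adm, Ero1l, Bnip3, Bhlhe40, Vegfa and Egln3 held and that of Egln1 ended (adjusted p = 0.0519).

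Glycolysis and lactate transport genes rose in 9 of 24, with smaller changes (median log2 fold change 0.35, highest 0.98). Pfkp, the platelet-type phosphofructokinase, stood at 387, 303 and 421 CPM in OIR, against 205, 169.8 and 189 CPM in controls. Slc16a3, a lactate exporter, stood at 160.0, 124 and 184 CPM in OIR, against 76.6, 99.9 and 71.6 CPM in controls. Pgk1, the phosphoglycerate kinase on the X chromosome, stood at 526, 529 and 659.8 CPM in OIR, against 278, 387 and 315 CPM in controls. For all 3 genes every OIR library was above every control, with log2 fold changes of 0.98, 0.92 and 0.81 (SE 0.118, 0.14 and 0.137). Pdk1, which closes the entry of pyruvate into the citric acid cycle, rose by 0.56 (SE 0.109, adjusted p = 0.00198) and Pfkfb3, which makes an activator of phosphofructokinase, by 0.64 (SE 0.132, adjusted p = 0.00334). Pfkm, the muscle-type phosphofructokinase, had a log2 fold change of -0.27 (SE 0.0902, adjusted p = 0.0564) and Slc16a1, another lactate transporter, of -0.28 (SE 0.0957, adjusted p = 0.0632); neither passed. The term for Y-linked RNA left 3 of the 9 calls, where the calls of Pfkp, Slc16a3 and Pgk1 held and those of Pdk1 and Pfkfb3 ended (adjusted p from 0.196 to 0.249). Without control replicate 2 the count was 14. Nuclear genes for respiratory chain subunits had no called member among 31 (0 at an unadjusted p under 0.05 by edgeR, and 0 called by DESeq2 and by limma-voom). The median was -0.06, and 0.11 with the term for Y-linked RNA, and the log2 fold changes ran from -0.24 to 0.21.

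Of 36 tested angiogenic ligands, 12 were higher and 2 lower, with a median log2 fold change of 0.17. Several of the 12 are counted in other lists too. Vegfa, Adm and Epo are also called HIF targets, and Apln, Angpt2 and Pdgfb called tip cell genes. Edn2 and Fgf2 are also called reactive glia genes. Apln, the ligand of the apelin receptor on growing endothelium, stood at 108, 55.9 and 113 CPM in OIR, against 8.52, 9.71 and 9.03 CPM in controls. Angpt2, an antagonist of the Tie2 receptor that loosens vessels, stood at 43.2, 24.4 and 45.1 CPM in OIR, against 7.49, 8.59 and 6.4 CPM in controls. Pgf, a ligand of Flt1, stood at 9.58, 8.13 and 16.9 CPM in OIR, against 1.96, 1.92 and 2.63 CPM in controls. In each of the 3 genes OIR replicate 2 was the lowest OIR library and all OIR libraries lay above the controls, with log2 fold changes of 3.35 (SE 0.239, adjusted p = 1.98e-06), 2.32 (SE 0.211, adjusted p = 4.91e-06) and 2.42 (SE 0.265, adjusted p = 1.91e-05). Fgf2, a fibroblast growth factor, stood at 12.7, 18.2 and 28.4 CPM in OIR, against 3.12, 1.92 and 2.35 CPM in controls, and Edn2, an endothelin that injured photoreceptors make, at 9.61, 15.9 and 30.6 CPM in OIR, against 0.103, 0.172 and 0 CPM in controls. For both, OIR replicate 3 was highest; the fitted log2 fold changes were 3.00 (SE 0.248, adjusted p = 1.98e-06) and 7.54 (SE 0.661, adjusted p = 2.32e-05), the second on 10 control reads in all. Fgf2os, a transcript antisense to Fgf2, rose by 7.18 (SE 0.804, adjusted p = 8.31e-05), and the strand setting of the counting is not given, so reads of the overlapping pair cannot be assigned. Igf1, a growth factor needed for retinal vessel growth, was lower: it stood at 20.2, 21.1 and 22.3 CPM in OIR, against 29.6, 31.9 and 30.7 CPM in controls (log2 fold change -0.54, SE 0.108, adjusted p = 0.00269), and its call ended without the OIR libraries rich in lens RNA (adjusted p = 0.132). Slit2, a guidance ligand (-0.40, SE 0.133, adjusted p = 0.0501), and Thbs2, a matrix inhibitor of vessel growth (0.67, SE 0.253, adjusted p = 0.0883), did not pass. With Y-linked RNA as a term 8 of the 12 higher calls and 1 of the 2 lower calls remained; the calls of Apln, Angpt2, Pgf, Fgf2, Edn2 and Igf1 held. The count of 2 lower ligands was 1 without control replicate 1 or OIR replicates 1 or 3 and with scaling by library totals, and 4 without OIR replicate 2.

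Genes on the list of receptors for angiogenic ligands rose in 14 of 32 and fell in 1, with a median log2 fold change of 0.40. Ednra, a receptor for endothelins, stood at 11, 10.4 and 10.7 CPM in OIR, against 4.8, 4.09 and 5.05 CPM in controls. Plxnd1, a semaphorin receptor of endothelium, stood at 58, 41.4 and 47.8 CPM in OIR, against 17.2, 23.7 and 20.3 CPM in controls. Neither overlapped between the groups, with log2 fold changes of 1.20 (SE 0.161, adjusted p = 9.61e-05) and 1.27 (SE 0.164, adjusted p = 9.61e-05). The netrin receptor Unc5b rose by 1.00 (SE 0.146, adjusted p = 0.000208), the TGF-beta co-receptor Eng (endoglin) by 1.48 (SE 0.216, adjusted p = 0.000465) and the endothelial roundabout receptor Robo4 by 1.51 (SE 0.246, adjusted p = 0.000683). Flt1, the decoy receptor for Vegfa, had a log2 fold change of 0.38 (SE 0.129, adjusted p = 0.0547) with all OIR libraries above the controls, and did not pass. Kdr, another receptor for Vegfa, did not rise (-0.11, SE 0.0913, adjusted p = 0.481), nor did Tek, which encodes Tie2 (-0.06, SE 0.204, adjusted p = 0.901). The 1 lower gene was Calcrl (-0.52, SE 0.152, adjusted p = 0.0276). Among the 14 calls 1 remained with the term for Y-linked RNA; the call of Plxnd1 held and those of Ednra, Unc5b, Eng and Robo4 ended (adjusted p from 0.0529 to 0.092). OIR replicate 3 as the only OIR library gave 7 higher receptors and the lens covariate 8; the 1 lower call ended without control replicate 2 or OIR replicate 2 or 3.

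Genes of endothelial tip cells and Notch signalling rose in 18 of 27, with a median log2 fold change of 1.38. Tip cells lead a sprout, and Notch signalling keeps their neighbours as stalk cells. Igfbp3, which binds insulin-like growth factors, stood at 48.4, 33.2 and 46.5 CPM in OIR, against 5.04, 5.58 and 5.09 CPM in controls. Mcam, an adhesion molecule of endothelium and pericytes, stood at 81.5, 58.8 and 75.4 CPM in OIR, against 17.7, 17.7 and 18.8 CPM in controls. These 2 genes had the smallest adjusted p among the members named here, with log2 fold changes of 3.03 (SE 0.161, adjusted p = 9.12e-09) and 1.99 (SE 0.125, adjusted p = 7.00e-08). Esm1, a proteoglycan of tip cells, stood at 10.6, 5.24 and 13.3 CPM in OIR, against 0.232, 0.0859 and 0.0692 CPM in controls. Its controls held 14 reads in all, so the fitted log2 fold change of 6.13 (SE 0.628, adjusted p = 3.15e-05) is coarse, and OIR replicate 2 was lowest among the OIR libraries, above every control. Lama4, a laminin chain of vessel basement membrane, stood at 42.1, 29.9 and 34.2 CPM in OIR, against 10.3, 13.9 and 10.7 CPM in controls and rose by 1.61 (SE 0.15, adjusted p = 3.41e-06). Hes1, a Notch target, did not pass (0.34, SE 0.112, adjusted p = 0.0541), nor did Col4a1, a collagen chain of basement membrane, whose values of 787, 464 and 307 CPM in OIR, against 61, 81.4 and 271 CPM in controls did not overlap (log2 fold change 1.92, SE 0.609, adjusted p = 0.0623). The term for Y-linked RNA left 8 of the 18 calls; the calls of Igfbp3, Mcam and Lama4 held and that of Esm1 ended (adjusted p = 0.0609).

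Markers of mature endothelium and its barrier rose in 16 of 29 and fell in 2, with a median log2 fold change of 0.92. Cdh5, the cadherin of endothelial junctions, stood at 44.3, 34.7 and 34.6 CPM in OIR, against 12.8, 14.5 and 12.8 CPM in controls. Pecam1, an adhesion molecule of endothelial contacts, stood at 55.3, 35.7 and 38.1 CPM in OIR, against 17.6, 22.7 and 18.9 CPM in controls. Emcn, a sialomucin of venous and capillary endothelium, stood at 10.4, 7.28 and 8.03 CPM in OIR, against 2.53, 3.15 and 2.63 CPM in controls. The groups did not overlap in these 3 genes, and OIR replicate 1 was the highest library in each; the log2 fold changes were 1.5, 1.12 and 1.63 (SE 0.182, 0.143 and 0.223). Icam1, which binds leukocytes, rose by 1.82 (SE 0.203, adjusted p = 1.91e-05) and Egfl7, a secreted endothelial protein, by 1.18 (SE 0.147, adjusted p = 5.04e-05). Slco1c1, a thyroxine transporter of barrier endothelium, went the other way at 5.43, 7.58 and 5.46 CPM in OIR, against 13.2, 12.3 and 12.9 CPM in controls, a log2 fold change of -1.05 (SE 0.149, adjusted p = 0.000155). Among other barrier genes of the list, Slco1a4 fell by 0.60 (SE 0.163, adjusted p = 0.0192), while Cldn5 and Abcg2 rose by 0.61 and 0.48 (SE 0.155 and 0.118). Mfsd2a (-0.09), Ocln (0.02), Tjp1 (0.13) and Abcb1a (0.44) did not pass (adjusted p from 0.155 to 0.975). Sele, a leukocyte selectin, had under 1 CPM in every library and did not pass (2.66, SE 0.879, adjusted p = 0.0519). Of the 16 and 2 calls 5 and 1 remained with Y-linked RNA as a term, where the calls of Cdh5, Pecam1, Icam1, Egfl7 and Slco1c1 held and that of Emcn ended (adjusted p = 0.0878). With OIR replicate 3 as the only OIR library 9 genes of the list were called higher, and 1 lower without control replicates 1 or 3 or OIR replicate 3.

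Pericyte and smooth muscle genes rose in 10 of 19, and all 19 had a positive log2 fold change (median 1.04). Pdgfrb, the receptor that holds pericytes on vessels, stood at 61.6, 46.4 and 43.2 CPM in OIR, against 23.8, 28.1 and 27 CPM in controls. Rgs5, a pericyte regulator of G protein signalling, stood at 271, 248 and 194 CPM in OIR, against 103, 118 and 97.1 CPM in controls. Des, an intermediate filament of mural cells, stood at 10.4, 7.74 and 9.65 CPM in OIR, against 1.94, 2.2 and 1.07 CPM in controls. Each was above the controls in every OIR library, with log2 fold changes of 0.94 (SE 0.126, adjusted p = 9.57e-05), 1.16 (SE 0.174, adjusted p = 0.000427) and 2.40 (SE 0.33, adjusted p = 0.00017). The proteoglycan gene Cspg4 rose by 1.20 (SE 0.177, adjusted p = 0.000217), the pericyte marker Higd1b by 1.55 (SE 0.239, adjusted p = 0.000299) and the mural Notch receptor Notch3 by 1.04 (SE 0.189, adjusted p = 0.00138). Abcc9, a subunit of the vascular ATP-sensitive potassium channel, did not pass (0.53, SE 0.181, adjusted p = 0.0571). Under the term for Y-linked RNA the list's median was 0.57 and 3 of the 10 calls remained; the calls of Pdgfrb and Higd1b held and those of Rgs5, Des, Cspg4 and Notch3 ended (adjusted p from 0.0529 to 0.296). With OIR replicate 3 as the only OIR library the count was 6.

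Of 29 basement membrane and matrix genes 10 rose, and 4 had a negative log2 fold change (median 0.76). Fn1, fibronectin, stood at 175, 144 and 230.1 CPM in OIR, against 44.5, 51.3 and 43.4 CPM in controls. Sparc, a matrix-binding protein, stood at 1263, 1219 and 1181 CPM in OIR, against 667, 799.8 and 657 CPM in controls. Bgn, the X-linked proteoglycan biglycan, stood at 50.7, 49.8 and 53.2 CPM in OIR, against 10.8, 14.5 and 11.3 CPM in controls. None of these overlapped between the groups (log2 fold changes 1.98, 0.79 and 2.07, SE 0.217, 0.126 and 0.308). Lama5, a laminin chain, had a log2 fold change of 0.78 (SE 0.248, adjusted p = 0.0516) and did not pass. The matrix count depended on the settings: it was 5 without OIR replicate 1, without control replicate 1, without control replicate 2 or with the lens covariate, 6 without OIR replicate 3 or with a replicate block, 3 with OIR replicate 3 as the only OIR library, 16 by DESeq2 and 21 without a count filter. With the term for Y-linked RNA it was 1 and the median was 0.11; the call of Fn1 held and those of Sparc and Bgn ended (adjusted p from 0.119 to 0.127). Bgn is also on the list of X-linked genes known to escape inactivation. Of its 9 members 6 were higher (median log2 fold change 0.68), and 0 with the term for Y-linked RNA (1 at an unadjusted p under 0.05; DESeq2, without the term, called 6). Proteases, their inhibitors and coagulation genes rose in 13 of 26 tested members of 29, and 5 had a negative log2 fold change (median 0.68). Plat, tissue plasminogen activator, stood at 47.2, 46.3 and 59.9 CPM in OIR, against 21.8, 17.8 and 19.6 CPM in controls. It was higher in every OIR library than in any control, with a log2 fold change of 1.37 (SE 0.126, adjusted p = 3.03e-06). Plaur, the urokinase receptor, rose by 2.90 (SE 0.394, adjusted p = 0.000106), Procr, the endothelial protein C receptor, by 2.69 (SE 0.306, adjusted p = 2.32e-05), Tfpi, an inhibitor of tissue factor, by 1.36 (SE 0.171, adjusted p = 5.21e-05) and A2m, a broad protease trap, by 2.01 (SE 0.25, adjusted p = 0.000171). Mmp15, a membrane-bound metalloproteinase, did not pass (-0.36, SE 0.133, adjusted p = 0.0814). For this list 5 calls remained with Y-linked RNA as a term; the calls of Plat, Plaur, Procr, Tfpi and A2m held. Igfbp5, another binding protein for insulin-like growth factors, stood at 225, 156 and 169.7 CPM in OIR, against 83.1, 111 and 112 CPM in controls and rose by 0.85 (SE 0.149, adjusted p = 0.00114), a call that ended under the same term (adjusted p = 0.205).

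**Figure D3:**
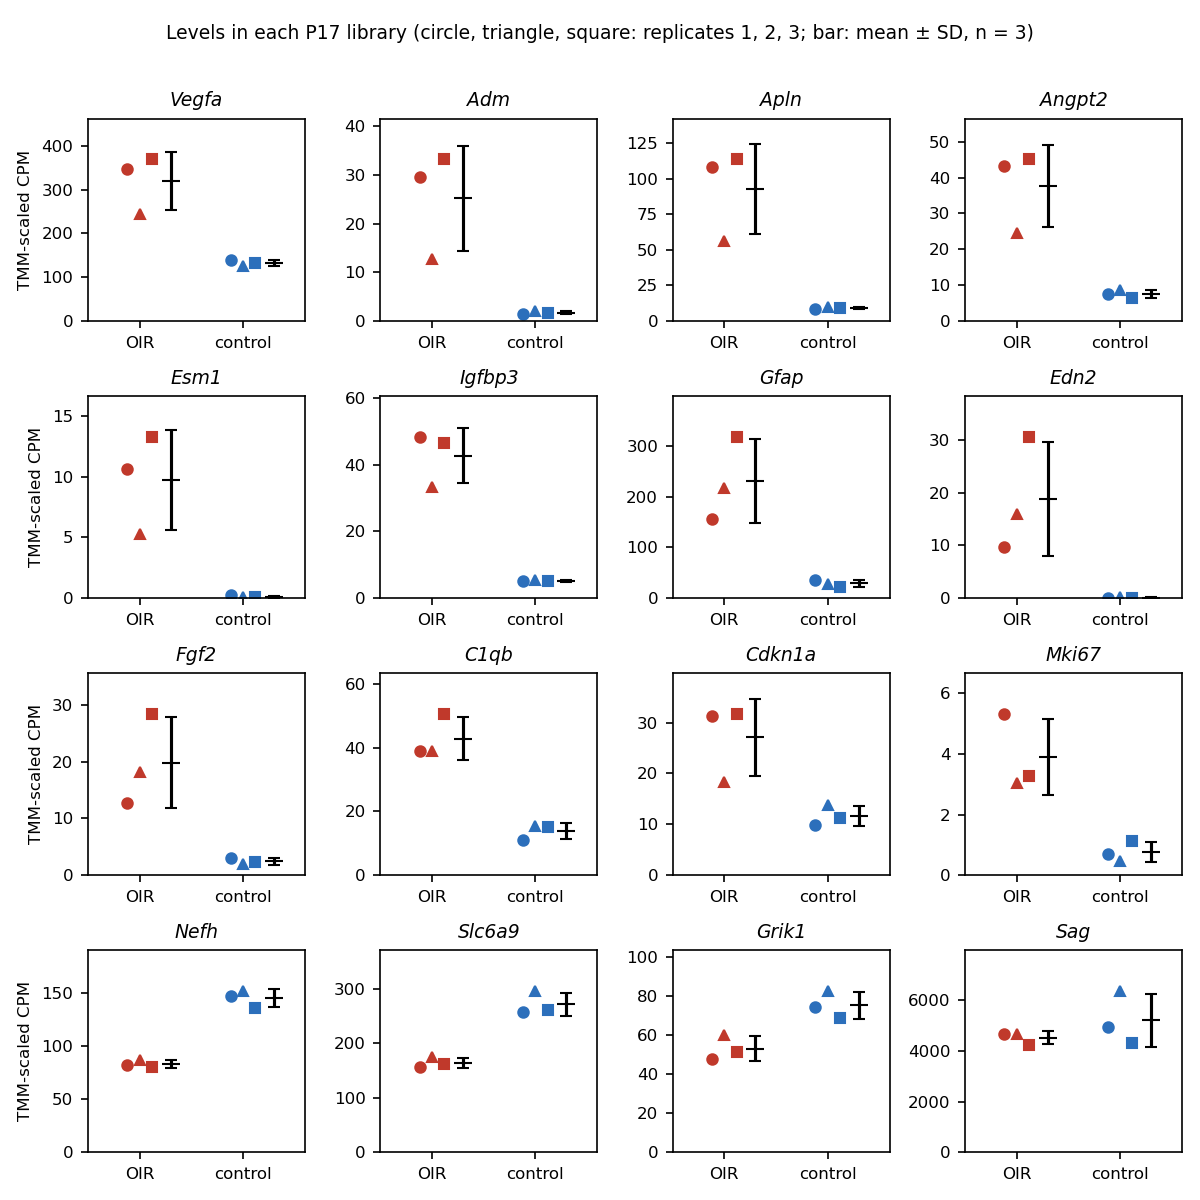
Levels (scaled CPM) of 16 genes in the 3 OIR and 3 control libraries at P17, with mean ± SD (n = 3 each). OIR lies above control without overlap for the vessel, glial, immune and cell cycle genes and below it for Nefh, Slc6a9 and Grik1, while the Sag values overlap.

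Reactive glia genes rose in 22 of 27, with a median log2 fold change of 1.87. Gfap, the filament that Muller glia make under stress, stood at 156, 218 and 319 CPM in OIR, against 36.5, 28 and 22.6 CPM in controls. Serpina3n, an acute-phase protease inhibitor, stood at 31.9, 83.5 and 115 CPM in OIR, against 3.02, 4.12 and 2.94 CPM in controls. Timp1, an inhibitor of metalloproteinases, stood at 3, 5.89 and 15.5 CPM in OIR, against 0.207, 0.143 and 0.381 CPM in controls. In these 3 genes OIR replicate 1 was the lowest and replicate 3 the highest OIR library, and every OIR library was above the controls. Their log2 fold changes were 2.99 (SE 0.336, adjusted p = 0.000177), 4.51 (SE 0.736, adjusted p = 0.00248) and 5.09 (SE 0.875, adjusted p = 0.0025), and reads of Serpina3n may be shared with near-identical members of its family. Cp, the ferroxidase ceruloplasmin, rose by 1.06 (SE 0.0921, adjusted p = 1.98e-06), the filament gene Nes by 1.59 (SE 0.155, adjusted p = 5.38e-06), the filament gene Vim by 1.01 (SE 0.123, adjusted p = 4.18e-05) and Cd44, a hyaluronan receptor, by 1.39 (SE 0.156, adjusted p = 2.05e-05). Aspg did not pass (1.76, SE 0.791, adjusted p = 0.158), nor did the cytokine gene Il33 (-0.21, SE 0.0961, adjusted p = 0.173). Under the term for Y-linked RNA 13 of the 22 calls remained; the calls of Gfap, Cp, Nes, Vim and Cd44 held and those of Serpina3n and Timp1 ended (adjusted p from 0.096 to 0.147). The Gfap promoter window (chr11:102897151-102897450, minus strand, RefSeq, GRCm38.p6) is shown because the window holds the letters of a STAT site, TTCCNGGAA, in capitals, 2 bases before the start.
Gfap: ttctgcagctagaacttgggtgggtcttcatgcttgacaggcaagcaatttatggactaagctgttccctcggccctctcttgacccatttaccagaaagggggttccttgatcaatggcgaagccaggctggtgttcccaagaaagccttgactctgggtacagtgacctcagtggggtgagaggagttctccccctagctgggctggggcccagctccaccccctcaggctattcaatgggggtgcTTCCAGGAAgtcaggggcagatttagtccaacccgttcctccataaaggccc
That motif reads the same on both strands. It occurred in 2 of 20 windows (10%) of called reactive glia genes, Gfap and Steap4, in 1.93% of windows of called higher genes, in 1.29% of windows of tested genes and in 1.17% of all windows.

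Genes of cytokine signalling through gp130, the route by which leukemia inhibitory factor reaches Muller glia, rose in 5 of 16 tested members of 19. The changed members include a ligand, a receptor and intracellular parts. Lif, the ligand, stood at 1.89, 1.71 and 4.65 CPM in OIR, against 0.491, 0.487 and 0.173 CPM in controls. Osmr, a receptor subunit, stood at 17.2, 15.9 and 21.4 CPM in OIR, against 7.88, 8.65 and 8.76 CPM in controls. Stat3, the transcription factor activated by the receptors, stood at 125, 111 and 162 CPM in OIR, against 59.6, 59.5 and 70 CPM in controls. Socs3, which feeds back to block it, stood at 11.9, 11.2 and 30.6 CPM in OIR, against 3.15, 3.29 and 4.33 CPM in controls. The groups did not overlap in these 4 genes; the log2 fold changes were 2.80, 1.11, 1.07 and 2.32 (SE 0.427, 0.153, 0.112 and 0.353), and OIR replicate 3 was highest in each. Cntfr, the receptor for ciliary neurotrophic factor, did not pass (-0.25, SE 0.101, adjusted p = 0.113). With Y-linked RNA as a term 2 of the 5 calls remained; the calls of Osmr and Stat3 held and those of Lif and Socs3 ended (adjusted p from 0.0835 to 0.111). Among 23 homeostatic genes of Muller glia, 1 was higher and 7 were lower. The list did not fall as a whole: its median log2 fold change was 0.016, with 13 positive and 10 negative members. Glul, the enzyme that turns glutamate into glutamine, stood at 1674, 1711 and 1504 CPM in OIR, against 2223, 2449 and 2019 CPM in controls. Kcnj10, the potassium channel that buffers retinal potassium, stood at 44.8, 56.8 and 47.1 CPM in OIR, against 64.1, 80.3 and 69.6 CPM in controls. Both were lower in every OIR library than in any control, by 0.45 (SE 0.101, adjusted p = 0.00541) and 0.52 (SE 0.109, adjusted p = 0.00331) on the log2 scale. Abca8a, a lipid transporter, fell by 0.48 (SE 0.0947, adjusted p = 0.00231), while Cyr61, a matrix-associated signalling protein, rose by 1.80 (SE 0.267, adjusted p = 0.000409). The count of 7 was 4 without control replicate 2, OIR replicate 1 or OIR replicate 3, and the count of 1 was 2 without control replicate 2 or 3 or OIR replicate 1 or 2. The term for Y-linked RNA left 0 calls in this list (3 genes higher and 3 lower at an unadjusted p under 0.05; DESeq2, without the term, called 4 higher and 7 lower); the calls of Glul, Kcnj10, Abca8a and Cyr61 ended (adjusted p from 0.096 to 0.284).

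Of 24 genes of microglia and macrophages 17 rose, and all 24 had a positive log2 fold change (median 1.21). C1qb, a chain of the first complement component made by microglia, stood at 38.8, 38.9 and 50.6 CPM in OIR, against 11.1, 15.5 and 15.2 CPM in controls. Cx3cr1, the fractalkine receptor of microglia, stood at 19.3, 18.8 and 20.9 CPM in OIR, against 9.37, 12.2 and 9.31 CPM in controls. Neither overlapped between the groups, with log2 fold changes of 1.62 (SE 0.195, adjusted p = 6.37e-05) and 0.93 (SE 0.155, adjusted p = 0.000589). Spi1, the transcription factor PU.1 of myeloid cells, rose by 1.53 (SE 0.267, adjusted p = 0.000868) and Cd53, a tetraspanin of white blood cells, by 1.91 (SE 0.288, adjusted p = 0.000253). Sall1, a microglial transcription factor, did not pass (1.29, SE 0.413, adjusted p = 0.0516). The 7 genes not called also include P2ry12 (0.11, SE 0.236, adjusted p = 0.834) and Tmem119 (0.34, SE 0.252, adjusted p = 0.444). Siglech (0.43, SE 0.257, adjusted p = 0.318) and Csf1r (0.28, SE 0.145, adjusted p = 0.226) were among them too. Phagocyte activation genes rose in 15 of 19 and fell in 1 (Igf1), with a median log2 fold change of 2.55, and of 1.52 under the term for Y-linked RNA. Cd68, a lysosomal protein of active phagocytes, stood at 4.66, 5.5 and 8.43 CPM in OIR, against 1.03, 1.4 and 0.796 CPM in controls. Lgals3, galectin 3, stood at 8.24, 9.93 and 14.5 CPM in OIR, against 1.01, 2.32 and 2.18 CPM in controls. Mmp12, a macrophage elastase, stood at 1.6, 2.31 and 2.98 CPM in OIR, against 0.181, 0.0859 and 0.208 CPM in controls. OIR replicate 3 was highest in the 3 genes and no OIR library fell among the controls, with log2 fold changes of 2.51 (SE 0.393, adjusted p = 0.000575), 2.58 (SE 0.381, adjusted p = 0.000575) and 3.85 (SE 0.425, adjusted p = 1.79e-05). Msr1, a scavenger receptor, rose by 3.52 (SE 0.501, adjusted p = 0.000156) and Tlr2, a receptor for bacterial lipoproteins, by 1.82 (SE 0.322, adjusted p = 0.000965). With Y-linked RNA as a term 2 of the 17 microglial and 1 of the 15 phagocyte calls remained; the calls of C1qb, Cd53 and Mmp12 held and those of Cx3cr1, Spi1, Cd68, Lgals3, Msr1 and Tlr2 ended (adjusted p from 0.0723 to 0.372). OIR replicate 3 as the only OIR library gave 11 microglial genes.

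Of 18 markers of infiltrating leukocytes 8 passed the filter on low counts, and 1 was called. S100a9, a neutrophil protein, stood at 0.744, 0.37 and 2.16 CPM in OIR, against 0, 0.115 and 0.104 CPM in controls (log2 fold change 3.92, SE 0.764, adjusted p = 0.0024). Mrc1, a receptor of perivascular macrophages, did not pass, with 2.17, 2.36 and 1.83 CPM in OIR, against 0.852, 0.601 and 0.831 CPM in controls (1.47, SE 0.493, adjusted p = 0.0564). The T cell genes Cd3d (7 reads in OIR and 2 in controls), Cd3e (1 and 2) and Cd3g (1 and 0) did not reach the filter. The monocyte receptor Ccr2 did not reach it either, with 39 reads in OIR and 5 in controls, and was not tested. The count was 3 by DESeq2, 2 by limma-voom, 4 with the P17 libraries alone and 6 without a count filter. Chemokines and their receptors rose in 7 of 16 tested members of 21 and fell in 2. Among the higher ones, Ccl3 and Ccl4 are also counted as phagocyte genes, Cxcr4 as a tip cell gene and Cxcl10 as a reactive glia gene. Ccl2, which attracts monocytes, stood at 0.4, 0.647 and 2.23 CPM in OIR, against 0.0775, 0 and 0.138 CPM in controls. Ccl3, a chemokine of activated microglia, stood at 0.543, 0.716 and 0.609 CPM in OIR, against 0.0516, 0.0573 and 0.104 CPM in controls. Cxcr4, a receptor also found on tip cells, stood at 14.7, 10.9 and 11.8 CPM in OIR, against 7.38, 4.84 and 6.02 CPM in controls. The groups were apart in each, with log2 fold changes of 3.94 (SE 0.735, adjusted p = 0.00158), 3.12 (SE 0.596, adjusted p = 0.00179) and 1.03 (SE 0.178, adjusted p = 0.000823), and the chemokines themselves were below 3 CPM. Ccl5, a T cell chemokine, did not pass (2.40, SE 0.797, adjusted p = 0.0519). The higher count was 4 without control replicate 3, 1 with a filter of 50 counts in 2 libraries and 13 without a filter. The lower count was 1 without control replicates 1 or 2 or OIR replicates 1 or 2 or with the lens covariate, and 0 without OIR replicate 3 or with OIR replicate 3 as the only OIR library (3 lower at an unadjusted p under 0.05 with every library, 2 by DESeq2). Under the term for Y-linked RNA 0 leukocyte markers were called (1 higher at an unadjusted p under 0.05), and 0 chemokine genes in either direction (3 higher and 2 lower at an unadjusted p under 0.05); the calls of S100a9, Ccl2, Ccl3 and Cxcr4 ended (adjusted p from 0.085 to 0.574).

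Complement genes rose in 13 of 19 tested members of 22 (median log2 fold change 1.39). Of these, C1qa, C1qb and C1qc are also counted as microglial genes and C3 as a reactive glia gene. C3, the central component, stood at 4.35, 5.01 and 6.38 CPM in OIR, against 1.08, 1.17 and 1.63 CPM in controls. C1ra, a protease of the first component, stood at 2.95, 3.79 and 2.66 CPM in OIR, against 0.852, 0.83 and 1.11 CPM in controls. Serping1, the inhibitor of that protease, stood at 23.2, 38.5 and 37.7 CPM in OIR, against 7.15, 7.19 and 9.03 CPM in controls. Components and inhibitor alike were higher in every OIR library, with log2 fold changes of 2.03 (SE 0.288, adjusted p = 0.000166), 1.76 (SE 0.223, adjusted p = 5.87e-05) and 2.09 (SE 0.26, adjusted p = 0.000145). C3ar1, the receptor for a C3 fragment, rose by 2.38 (SE 0.39, adjusted p = 0.000516) and C4b by 4.54 (SE 0.775, adjusted p = 0.0032), the last uncertain because a near-identical copy exists. Interferon and antigen presentation genes rose in 14 of 27 tested members of 28 (median 1.03). H2-Ab1, a chain of class II histocompatibility proteins, stood at 13.3, 7.28 and 15.2 CPM in OIR, against 1.5, 3.06 and 1.59 CPM in controls, and Cd74, the chaperone of class II, at 4.06, 6.61 and 7.94 CPM in OIR, against 1.55, 1.57 and 0.935 CPM in controls. OIR replicate 2 was lowest for H2-Ab1 and replicate 1 for Cd74, each still above the controls, with log2 fold changes of 2.53 (SE 0.335, adjusted p = 0.00017) and 2.18 (SE 0.368, adjusted p = 0.000991). H2-K1, a class I chain that may share reads with its relatives, rose by 1.52 (SE 0.203, adjusted p = 0.000217), the interferon-induced factor Irf1 by 1.15 (SE 0.141, adjusted p = 4.20e-05), Irf8 of myeloid cells by 1.22 (SE 0.181, adjusted p = 0.000218) and the guanylate-binding protein gene Gbp2 by 1.57 (SE 0.257, adjusted p = 0.000524). Ifit3, an interferon-induced antiviral gene, did not pass (0.64, SE 0.248, adjusted p = 0.0995). The count was 9 without control replicate 1. Under the term for Y-linked RNA 4 complement and 2 interferon calls remained; the calls of C3, C1ra, Serping1, H2-Ab1 and Irf1 held and those of C3ar1, C4b, Cd74, H2-K1, Irf8 and Gbp2 ended (adjusted p from 0.0619 to 0.239).

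Inflammasome and cell death genes rose in 10 of 22 tested members of 26 (median log2 fold change 0.52). Tnfrsf12a, the receptor of the cytokine TWEAK, stood at 10.6, 9.47 and 16.5 CPM in OIR, against 2.4, 2.29 and 2.28 CPM in controls. Tnfrsf1a, a receptor for tumour necrosis factor, stood at 31.6, 30.7 and 41.6 CPM in OIR, against 13.1, 13 and 15.1 CPM in controls. Fas, a death receptor, stood at 1.46, 1.87 and 1.17 CPM in OIR, against 0.181, 0.0859 and 0.312 CPM in controls. OIR and control libraries were apart in all 3, with log2 fold changes of 2.39 (SE 0.236, adjusted p = 6.58e-06), 1.34 (SE 0.177, adjusted p = 0.00011) and 2.98 (SE 0.497, adjusted p = 0.000605). Downstream of such receptors, Casp8 rose by 1.12 (SE 0.198, adjusted p = 0.000963) and Ripk3, a kinase of necroptosis, by 2.52 (SE 0.466, adjusted p = 0.00136). Pmaip1, a pro-apoptotic member of the BCL-2 family, rose by 1.79 (SE 0.343, adjusted p = 0.00182). Gsdmd, which forms pores in pyroptosis, did not pass (0.83, SE 0.29, adjusted p = 0.0633), nor did Bcl2l1, an anti-apoptotic gene (-0.23, SE 0.0844, adjusted p = 0.0734). Cell cycle inhibitors and p53 targets rose in 7 of 21 (median 0.19). Gadd45b, a stress-induced growth arrest gene, stood at 21.4, 16.5 and 29.5 CPM in OIR, against 3.72, 3.24 and 3.63 CPM in controls. Cdkn1a, the p53-induced inhibitor p21, stood at 31.2, 18.3 and 31.8 CPM in OIR, against 9.92, 13.9 and 11.2 CPM in controls, and Cdkn2c, an inhibitor of the kinases Cdk4 and Cdk6, at 16.3, 13.5 and 18.7 CPM in OIR, against 6.51, 6.7 and 6.13 CPM in controls. The groups did not overlap, with log2 fold changes of 2.67 (SE 0.229, adjusted p = 2.95e-06), 1.22 (SE 0.214, adjusted p = 0.00138) and 1.33 (SE 0.133, adjusted p = 6.58e-06). Phlda3, a p53 target that restrains Akt, rose by 1.01 (SE 0.201, adjusted p = 0.00272). Cdkn2a, a senescence gene, had 0.658, 0.531 and 0.609 CPM in OIR, against 0.103, 0.0286 and 0.208 CPM in controls and a log2 fold change of 2.42 (SE 0.612, adjusted p = 0.012); its call ended without control replicate 1 or 2 and with OIR replicate 3 as the only OIR library (adjusted p = 0.0501, 0.0598 and 0.108). Under the term for Y-linked RNA 2 calls remained in each of these lists; the calls of Tnfrsf12a, Tnfrsf1a, Gadd45b and Cdkn2c held and those of Fas, Casp8, Ripk3, Pmaip1, Cdkn1a, Phlda3 and Cdkn2a ended (adjusted p from 0.0637 to 0.444).

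Cell division and DNA replication genes rose in 20 of 30, with a median log2 fold change of 0.95. Mki67, a protein of cycling cells, stood at 5.32, 3.05 and 3.27 CPM in OIR, against 0.697, 0.487 and 1.14 CPM in controls. Top2a, the replication topoisomerase, stood at 8.47, 6.14 and 5.05 CPM in OIR, against 1.37, 1.17 and 1.87 CPM in controls. Cdk1, the kinase that starts mitosis, stood at 4.66, 5.54 and 5.48 CPM in OIR, against 0.826, 0.601 and 1.94 CPM in controls. All were above the controls in every OIR library at single-digit CPM, with log2 fold changes of 2.33 (SE 0.346, adjusted p = 0.000233), 2.16 (SE 0.331, adjusted p = 0.000368) and 2.25 (SE 0.302, adjusted p = 9.61e-05). Mcm3 of the replicative helicase rose by 1.31 (SE 0.191, adjusted p = 0.000189), Ube2c, a mitotic ubiquitin enzyme, by 2.77 (SE 0.323, adjusted p = 2.81e-05), and Ccnd1, cyclin D1, by 0.78 (SE 0.114, adjusted p = 0.000196). Aurka, a mitotic kinase, did not pass (0.68, SE 0.245, adjusted p = 0.072). With OIR replicate 3 as the only OIR library 9 of the list were called. Of the 20 calls 2 remained with Y-linked RNA as a term; the calls of Mcm3 and Ube2c held and those of Mki67, Top2a, Cdk1 and Ccnd1 ended (adjusted p from 0.0541 to 0.218).

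Immediate early genes and AP-1 factors rose in 20 of 28 and fell in 1 (median log2 fold change 1.00). Atf3, a stress-induced factor, stood at 12, 9.47 and 18.9 CPM in OIR, against 3.12, 3.61 and 3.12 CPM in controls. Egr2, a zinc-finger factor, stood at 2.8, 1.36 and 4.1 CPM in OIR, against 0.258, 0.0573 and 0.104 CPM in controls. Arc, an activity-induced gene of neurons, stood at 14, 6 and 5.71 CPM in OIR, against 1.29, 1.66 and 2.35 CPM in controls. The groups were apart in each, with log2 fold changes of 2.03 (SE 0.214, adjusted p = 1.12e-05), 4.22 (SE 0.519, adjusted p = 4.48e-05) and 2.28 (SE 0.325, adjusted p = 0.000208), and OIR replicate 2 was the lowest OIR library for Atf3 and Egr2. Maff, a small Maf factor, rose by 2.89 (SE 0.322, adjusted p = 1.91e-05) and Egr3 by 3.24 (SE 0.409, adjusted p = 5.55e-05). Nr4a3, a nuclear receptor, did not pass (0.59, SE 0.258, adjusted p = 0.144). An AP-1 motif, TGANTCA on either strand, was found in 0 of 12 promoter windows of the called members of this list, in 7.39% of windows of called higher genes and in 3.85% of windows of called lower genes; 4.69% of windows of tested genes and 7.98% of all windows hold it. The 1 lower call was lost when control replicate 1, OIR replicate 1 or OIR replicate 3 was left out. Unfolded protein and amino acid stress genes rose in 8 of 24 by small amounts (median 0.35). Ddit3, the factor CHOP, stood at 42.8, 46.1 and 49.5 CPM in OIR, against 32, 34.6 and 27.9 CPM in controls, and Shmt2, a mitochondrial serine enzyme, at 86.1, 74.9 and 92.5 CPM in OIR, against 53.3, 59.2 and 65.6 CPM in controls. Neither overlapped, with log2 fold changes of 0.55 (SE 0.126, adjusted p = 0.00655) and 0.51 (SE 0.0913, adjusted p = 0.0011), and Mthfd2, of the same folate pathway, did not pass (0.37, SE 0.129, adjusted p = 0.0603). The count was 4 without control replicate 1, 5 without control replicate 3, 5 with the lens covariate and 5 with OIR replicate 3 as the only OIR library. Metal and oxidative stress genes rose in 4 of 21 tested members of 23 (7 without a count filter). Mt2, a metallothionein, stood at 34.2, 22.4 and 57.8 CPM in OIR, against 8.31, 8.71 and 7.1 CPM in controls, and Mt1 at 109, 89.6 and 171 CPM in OIR, against 44.6, 52 and 39.3 CPM in controls. OIR replicate 3 was highest for both, with log2 fold changes of 2.24 (SE 0.336, adjusted p = 0.000955) and 1.45 (SE 0.278, adjusted p = 0.00437). Gpx3, a secreted glutathione peroxidase, rose by 1.93 (SE 0.364, adjusted p = 0.00468). With Y-linked RNA as a term, 4 immediate early and 1 unfolded protein call remained, and in the metal list 0 (3 at an unadjusted p under 0.05; DESeq2, without the term, called 5); the calls of Atf3, Arc, Maff, Egr3 and Ddit3 held and those of Egr2, Shmt2, Mt2, Mt1 and Gpx3 ended (adjusted p from 0.0759 to 0.204).

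Cholesterol and fatty acid synthesis genes fell in 15 of 27, and 26 of the 27 had a negative log2 fold change (median -0.38). Srebf2, the transcription factor that drives the pathway, stood at 136, 135 and 137 CPM in OIR, against 184, 190.4 and 196 CPM in controls. Fasn, fatty acid synthase, stood at 168, 157 and 137 CPM in OIR, against 232, 257 and 247 CPM in controls. Every OIR library was below every control in these 2 genes, with log2 fold changes of -0.48 (SE 0.0735, adjusted p = 0.000284) and -0.67 (SE 0.113, adjusted p = 0.000649). Dhcr7 fell by 0.41 (SE 0.0763, adjusted p = 0.00151) and Lss, lanosterol synthase, by 0.40 (SE 0.0803, adjusted p = 0.00269). Acly, which makes cytosolic acetyl-CoA, did not pass (-0.24, SE 0.0828, adjusted p = 0.0557). The count was 9 with OIR replicate 3 as the only OIR library and 3 with Y-linked RNA as a term, where the call of Fasn held and those of Srebf2, Dhcr7 and Lss ended (adjusted p from 0.0518 to 0.135). Genes of thyroid hormone handling fell in 3 of 10. Dio2, which activates thyroxine in glia, stood at 24.9, 24 and 22.5 CPM in OIR, against 35.5, 40.2 and 34.3 CPM in controls (log2 fold change -0.63, SE 0.1, adjusted p = 0.000434, no overlap). Thrb, a thyroid hormone receptor used by cones, did not pass (-0.27, SE 0.115, adjusted p = 0.138). Among 18 clock genes 2 were higher and 2 lower, while 7.81% of all tested genes were called higher and 6.76% lower. With so few members these counts do not set the list apart. The larger of the 2 rises was that of Bhlhe40, already counted among the HIF targets. Hlf, a clock output factor, stood at 134, 139.7 and 126 CPM in OIR, against 174, 185 and 177 CPM in controls. It fell by 0.42 (SE 0.0797, adjusted p = 0.00172), while Clock did not pass (-0.28, SE 0.106, adjusted p = 0.0884). Of the lists' calls for thyroid and clock genes, 1 each remained with the term for Y-linked RNA; the calls of Dio2 and Hlf ended (adjusted p from 0.101 to 0.11). Both clock counts were 1 in several fits, the higher without OIR replicates 1 or 3 or control replicates 2 or 3 or with scaling by library totals and the lower without OIR replicates 2 or 3.

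Among photoreceptor genes only some cone genes passed. No rod gene was called among 25 (0 at an unadjusted p under 0.05 by edgeR, and 0 called by DESeq2 and by limma-voom), and their log2 fold changes ran from -0.22 to 0.20. Sag, rod arrestin, stood at 4684, 4663 and 4246 CPM in OIR, against 4946, 6377 and 4323 CPM in controls, and Grk1, a kinase of rods, at 881, 906 and 882 CPM in OIR, against 988, 1006 and 991 CPM in controls. The 2 groups overlapped for Sag and not for Grk1, with log2 fold changes of -0.20 (SE 0.141, adjusted p = 0.401) and -0.16 (SE 0.0951, adjusted p = 0.304). The median of the rod list was -0.06, and 0.08 with the term for Y-linked RNA; without control replicate 1 there was 1 call. Of 12 cone genes 3 were called higher, by log2 fold changes of 0.37 to 0.51, and that count was 1 without control replicate 1, with scaling by library totals or with OIR replicate 3 as the only OIR library, and 0 without control replicate 3, without OIR replicate 3 or with the term for Y-linked RNA, where 5 were higher at an unadjusted p under 0.05 (5 higher at an unadjusted p under 0.05 with every library, and 3 by DESeq2). The median of the cone list was 0.19 and 10 of its 12 genes were positive, while 7.81% of all tested genes were called higher. Opn1sw, the short-wavelength cone opsin, stood at 445, 500.2 and 526 CPM in OIR, against 388, 444 and 384 CPM in controls and did not pass (0.28, SE 0.123, adjusted p = 0.152).

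Many interneuron genes fell. Genes of bipolar cells, which relay photoreceptor signals, were lower in 13 of 23 (median log2 fold change -0.41). Grik1, a kainate receptor of cone bipolar cells, stood at 47.7, 60.2 and 51.4 CPM in OIR, against 74.4, 82.7 and 69 CPM in controls. Tacr3, a tachykinin receptor, stood at 16.1, 20.9 and 17.1 CPM in OIR, against 28.2, 32.8 and 30.4 CPM in controls. OIR was lower without overlap in each, by 0.51 (SE 0.0999, adjusted p = 0.00224) and 0.76 (SE 0.103, adjusted p = 0.000104). Isl1, a factor of bipolar, amacrine and ganglion cells, fell by 0.52 (SE 0.086, adjusted p = 0.000535). Vsx1, of certain cone bipolar cells, did not pass (-0.25, SE 0.101, adjusted p = 0.107). The count was 7 without control replicate 2, 8 without OIR replicate 1 or 2, 6 with the lens covariate and 4 with OIR replicate 3 as the only OIR library. Amacrine cell genes fell in 13 of 21 (median -0.37; 6 with OIR replicate 3 as the only OIR library). Gad1, which makes GABA, stood at 172, 204 and 181 CPM in OIR, against 266, 267 and 245 CPM in controls. Slc6a9, the glycine transporter of glycinergic amacrine cells, stood at 156, 175 and 161 CPM in OIR, against 257, 296 and 260.3 CPM in controls. Gjd2, connexin 36 of AII amacrine gap junctions, stood at 146, 145 and 137 CPM in OIR, against 197, 179 and 186 CPM in controls. The OIR libraries again lay below the controls, by 0.48 (SE 0.0955, adjusted p = 0.00232), 0.73 (SE 0.103, adjusted p = 0.000156) and 0.39 (SE 0.0794, adjusted p = 0.00282). Ebf1 fell by 0.61 (SE 0.0955, adjusted p = 0.000381) and Dab1, a reelin adaptor of AII cells, by 0.44 (SE 0.0838, adjusted p = 0.00174). Calb2, calretinin, did not pass (-0.27, SE 0.117, adjusted p = 0.147). Horizontal cell genes fell in 7 of 11 tested members of 12 (median -0.51; 4 without control replicate 2 or OIR replicate 3), and the 1 that rose was Vim, which is also a glial filament. Lhx1, their identity factor, stood at 9.87, 7.44 and 6.88 CPM in OIR, against 12.4, 12.5 and 10.8 CPM in controls, and Slc4a3, an anion exchanger, at 111, 109 and 110.1 CPM in OIR, against 186, 221 and 188 CPM in controls. Neither overlapped, with log2 fold changes of -0.57 (SE 0.131, adjusted p = 0.00661) and -0.85 (SE 0.0885, adjusted p = 1.09e-05), while Prox1 did not pass (-0.41, SE 0.154, adjusted p = 0.0923). With the term for Y-linked RNA 1 bipolar, 0 amacrine and 1 lower horizontal calls remained (12 amacrine genes lower at an unadjusted p under 0.05; DESeq2, without the term, called 13), with medians of -0.31, -0.41 and -0.53; the calls of Tacr3 and Slc4a3 held and those of Grik1, Isl1, Gad1, Slc6a9, Gjd2, Ebf1, Dab1 and Lhx1 ended (adjusted p from 0.0593 to 0.293).

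Ganglion cell genes fell in 11 of 24 tested members of 25 (median log2 fold change -0.33). The called genes include the 3 neurofilament genes of their axons. Nefh, the heavy chain, stood at 82.5, 86.7 and 80.1 CPM in OIR, against 147, 152 and 136 CPM in controls, Nefm at 157, 156 and 145 CPM in OIR, against 239, 243 and 255 CPM in controls and Nefl at 478, 526 and 479 CPM in OIR, against 718, 811 and 729 CPM in controls. No library overlapped and the replicates lay close together, with log2 fold changes of -0.80 (SE 0.0918, adjusted p = 2.33e-05), -0.69 (SE 0.0804, adjusted p = 3.00e-05) and -0.61 (SE 0.111, adjusted p = 0.00127). Elavl4, an RNA-binding protein of neurons, fell by 0.44 (SE 0.0955, adjusted p = 0.00412). Pou4f2, a factor that specifies ganglion cells, had 9.67, 8.91 and 8.05 CPM in OIR, against 12.3, 12.8 and 11.7 CPM in controls and did not pass (-0.46, SE 0.157, adjusted p = 0.0557), nor did Sncg, gamma-synuclein (-0.26, SE 0.102, adjusted p = 0.0979). The count was 6 without OIR replicate 1 or 3 and 7 without control replicate 2. Among 21 neuropeptide and related genes 4 rose and 4 fell. Tac1, the substance P precursor, stood at 45.1, 41.1 and 51.1 CPM in OIR, against 24.6, 23.2 and 25.5 CPM in controls, and Tac2, the neurokinin B precursor, at 27.3, 29 and 30.5 CPM in OIR, against 15.7, 14.7 and 14.6 CPM in controls. Ecel1, a protease induced in injured neurons, stood at 5.15, 3 and 6.2 CPM in OIR, against 0.697, 1 and 0.519 CPM in controls. These 3 were higher in every OIR library, with log2 fold changes of 0.91 (SE 0.103, adjusted p = 2.32e-05), 0.95 (SE 0.135, adjusted p = 0.000166) and 2.68 (SE 0.309, adjusted p = 2.57e-05). Vgf, a neuropeptide precursor, was lower, with 11, 19.4 and 16.3 CPM in OIR, against 23.9, 27.9 and 28.7 CPM in controls (-0.78, SE 0.161, adjusted p = 0.00354), and Pdyn, prodynorphin, did not pass (-0.37, SE 0.135, adjusted p = 0.0736). The count of 4 lower was 1 without control replicate 1, 2 without control replicates 2 or 3 or with the lens covariate, and 1 with OIR replicate 3 as the only OIR library. The term for Y-linked RNA left 2 lower ganglion cell genes and 3 higher neuropeptide genes; the calls of Nefh, Nefm, Tac1, Tac2 and Ecel1 held and those of Nefl, Elavl4 and Vgf ended (adjusted p from 0.157 to 0.406).

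Many synaptic and channel genes also fell. Of 30 synaptic machinery genes 11 were lower and 1 higher (median log2 fold change -0.33). Syn1, a synaptic vesicle protein, stood at 89.2, 90.7 and 84.7 CPM in OIR, against 118, 148 and 129 CPM in controls, and Shank1, a postsynaptic scaffold, at 15.8, 16.3 and 14.4 CPM in OIR, against 26.2, 33.6 and 28.7 CPM in controls. Every OIR library was below the controls, with log2 fold changes of -0.58 (SE 0.0918, adjusted p = 0.000411) and -0.93 (SE 0.158, adjusted p = 0.000928). Cplx1, complexin 1, fell by 0.60 (SE 0.102, adjusted p = 0.000761) and Syn2 by 0.42 (SE 0.0806, adjusted p = 0.00192), and Rims2, of the active zone, did not pass (-0.31, SE 0.109, adjusted p = 0.0617). Transmitter receptor channels fell in 13 of 25 (median -0.41). Glra1, a glycine receptor subunit, stood at 3.69, 5.36 and 3.97 CPM in OIR, against 8.83, 9.51 and 7.96 CPM in controls, and Grik5, a kainate receptor subunit, at 61.5, 58.8 and 58.9 CPM in OIR, against 80.5, 101 and 82.1 CPM in controls. The groups did not overlap, with log2 fold changes of -1.01 (SE 0.198, adjusted p = 0.00206) and -0.56 (SE 0.0874, adjusted p = 0.000359). Gabrb2, a GABA receptor subunit, fell by 0.63 (SE 0.141, adjusted p = 0.00541) and Chrnb2, a nicotinic subunit, by 0.52 (SE 0.0986, adjusted p = 0.00173). Potassium and calcium handling genes fell in 15 of 25 (median -0.33). Kcnd2, a channel of transient potassium current, stood at 11.7, 13.8 and 11 CPM in OIR, against 22.2, 22.5 and 20 CPM in controls, and Atp2a3, a calcium pump, at 4.83, 3.6 and 3.54 CPM in OIR, against 6.48, 8.65 and 6.92 CPM in controls, with log2 fold changes of -0.83 (SE 0.115, adjusted p = 0.000133) and -0.88 (SE 0.172, adjusted p = 0.00203). Kcna1 did not pass (-0.32, SE 0.129, adjusted p = 0.11). The receptor count was 7 without control replicate 2 or OIR replicate 3 and 8 without OIR replicate 1. The potassium and calcium count was 7 without OIR replicate 3 and 8 without OIR replicate 1 or control replicate 3. With OIR replicate 3 as the only OIR library 4 synaptic, 6 receptor and 2 potassium and calcium genes were lower, and the 1 higher synaptic call ended there and without OIR replicates 1 or 3, without control replicates 1 or 2, with the lens covariate or without a count filter. The term for Y-linked RNA left 1 lower call in each list; the calls of Shank1, Grik5 and Kcnd2 held and those of Syn1, Cplx1, Syn2, Glra1, Gabrb2, Chrnb2 and Atp2a3 ended (adjusted p from 0.0766 to 0.362).

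**Figure D4:**
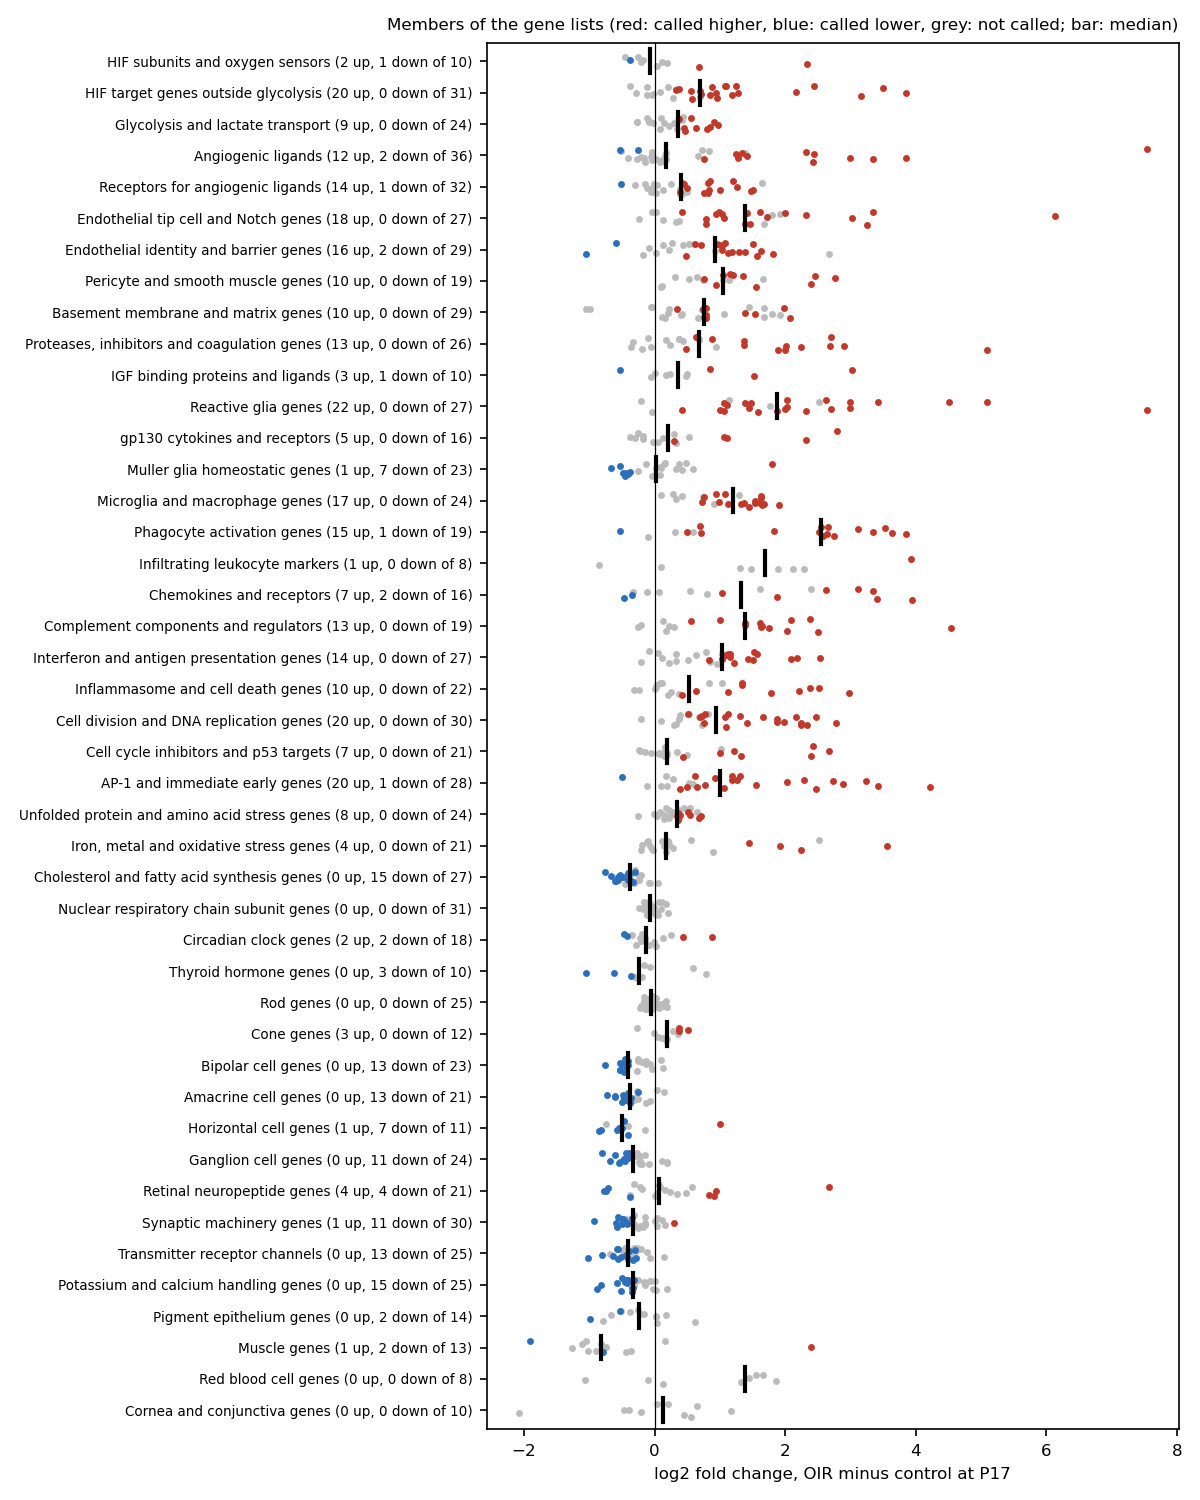
Log2 fold change (OIR minus control at P17) of the tested members of 44 gene lists, with called genes in red (higher) or blue (lower), others in grey and the median as a bar. Members of the vessel, glial and immune lists reach far to the right, with medians up to 2.55 in the phagocyte list, while interneuron, synaptic, channel and cholesterol lists lie between -0.51 and -0.33 at the median. The muscle list has the lowest median drawn, -0.82, with 11 of 13 tested genes negative, 2 called lower and 1 called higher. The red blood cell list has a median of 1.39. Lists of X-linked and Y-linked genes are not drawn, nor is the lens list. In the lens list all 22 tested genes were positive, with a larger median of 3.52, and 2 were called higher. That count was 17 by DESeq2, 22 without a count filter, 5 without OIR replicate 3 and 0 without OIR replicate 1 or 2.

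Some large changes were in genes outside the lists above, apart from Cebpd, which is also counted among the reactive glia genes. Genes outside the lists could be named here only if OIR and control libraries did not overlap. For them the lack of overlap follows from the choice and is no further result. Lad1, an anchoring filament protein of epithelia, stood at 7.01, 8.31 and 17.8 CPM in OIR, against 0.284, 0.172 and 0.242 CPM in controls. Bcl3, a co-regulator of NF-kappa-B, stood at 4.6, 7.76 and 20.2 CPM in OIR, against 0.465, 0.515 and 0.623 CPM in controls. Cebpd, an acute-phase transcription factor, stood at 35.4, 37.2 and 96.6 CPM in OIR, against 4.62, 5.47 and 5.71 CPM in controls. In all 3 OIR replicate 3 was the highest library and the controls did not overlap with OIR, with log2 fold changes of 5.54 (SE 0.429, adjusted p = 1.97e-06), 4.35 (SE 0.596, adjusted p = 0.000434) and 3.42 (SE 0.423, adjusted p = 0.000348). Serpinh1, a collagen chaperone, stood at 175, 160.0 and 183 CPM in OIR, against 68.8, 80 and 88.7 CPM in controls and rose by 1.12 (SE 0.15, adjusted p = 0.000116). Among the falls, Hap1, a huntingtin-associated trafficking protein, stood at 112, 98.9 and 91.2 CPM in OIR, against 189.9, 199 and 206 CPM in controls. Rph3a, a Rab3 effector of synaptic vesicles, stood at 134, 153 and 131 CPM in OIR, against 243, 283 and 244 CPM in controls. Kcnk9, a background potassium channel, stood at 2.83, 2.43 and 2.48 CPM in OIR, against 8.78, 6.93 and 9 CPM in controls. These were lower in every OIR library, by 0.98 (SE 0.09, adjusted p = 3.03e-06), 0.88 (SE 0.0878, adjusted p = 6.58e-06) and 1.68 (SE 0.201, adjusted p = 3.68e-05). Dpysl5, a protein of growing neurites, fell by 0.74 (SE 0.0939, adjusted p = 5.81e-05), Esrp1, a splicing factor, by 1.55 (SE 0.273, adjusted p = 0.00092) and P2rx2, an ATP-gated channel, by 1.40 (SE 0.177, adjusted p = 5.76e-05). With Y-linked RNA as a term the calls of Lad1, Bcl3, Cebpd, Hap1, Rph3a, Kcnk9, Dpysl5, Esrp1 and P2rx2 held and that of Serpinh1 ended (adjusted p = 0.0593).

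The 3 OIR libraries did not change by the same amount, and their order differed between gene groups. For each called gene the distance of each OIR library from the control mean was taken on the scale of log2(CPM + 0.1). Of all 1555 higher genes the distance was largest in OIR replicates 1, 2 and 3 for 596, 216 and 743 genes. Of the 20 called HIF targets it was smallest in replicate 2 for 19, and replicate 2 was also smallest for 17 of 20 immediate early and AP-1 genes and 15 of 18 tip cell genes. Replicate 1 had the largest distance in 14 of 18 tip cell, 13 of 16 endothelial, 9 of 10 pericyte and 15 of 20 cell division genes. Replicate 3 had it in 18 of 22 reactive glia, 15 of 17 microglial and 13 of 14 interferon genes. The lens share was 8.63%, 6.32% and 0.390% in replicates 1, 2 and 3, and Hbb-bs stood at 791, 233 and 336 CPM in them; whether the order of the libraries follows from either was not tested. With 3 libraries these are descriptions of these samples.

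**Figure D5:**
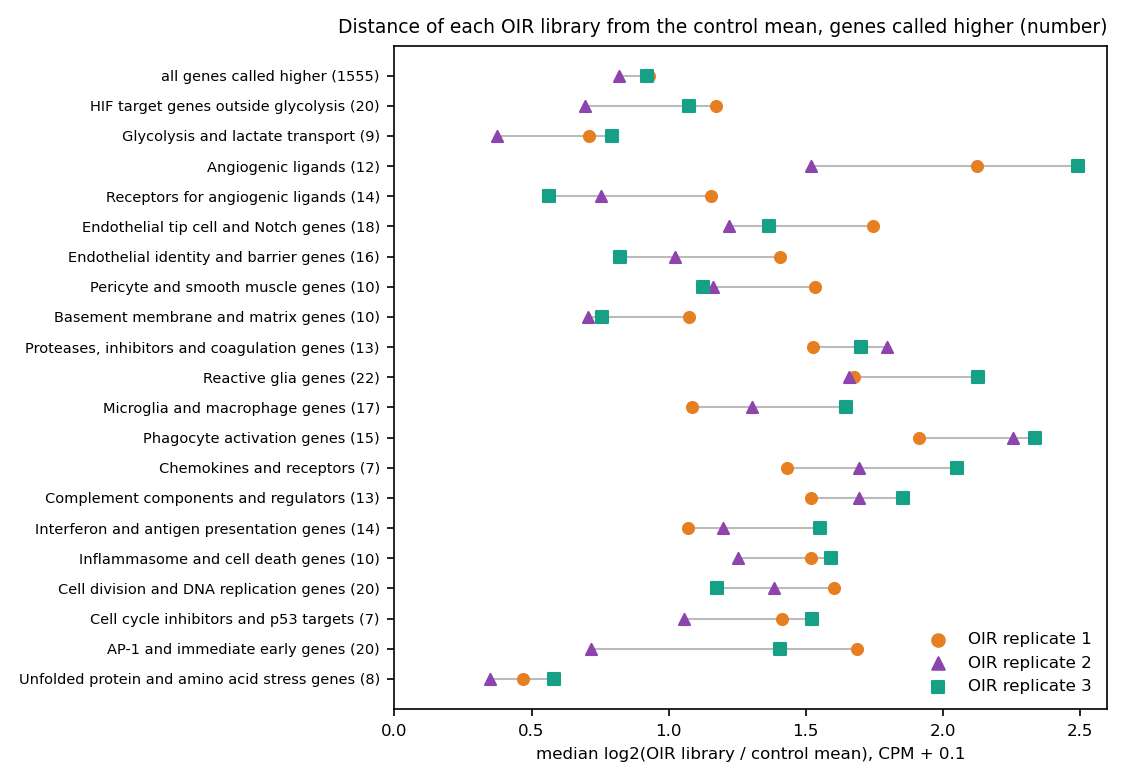
Median distance of each OIR library from the control mean, log2(CPM + 0.1), over the called higher genes of each list (number in brackets). Replicate 2 is the smallest for the HIF, tip cell and immediate early lists, replicate 1 the largest for endothelial and pericyte lists, and replicate 3 the largest for glial, microglial and interferon lists.

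At P14 and P30 the same genes were read in other libraries. Of the 1555 genes called higher at P17, 1317 (84.7%) had a positive log2 fold change at P14, against 47.1% of all tested genes, and 1111 (71.4%) at P30, against 51.4%. Of the 1345 lower genes 1190 (88.5%) were negative at P14, against 52.9% of all tested genes, and 651 (48.4%) at P30, against 48.6%. Of the 144 genes called higher at P14 (0.723% of those tested) 135 (93.8%) were called higher at P17, which is 8.68% of the P17 list. At P30 1711 genes (8.6%) were called, and of the 988 higher ones (4.96%) 190 (19.2%) were called higher at P17, which is 12.2% of that list. Among the 1345 lower genes 57 (4.24%) were also called lower at P30, near the 3.63% of all tested genes called lower there. Of the same 1345 genes 82 were called higher at P30, where 4.96% of all tested genes were called higher. Igfbp3 had log2 fold changes of 1.96 at P14, 3.03 at P17 and -1.01 at P30, and Gfap of 3.01, 2.99 and 1.42. Angpt2 had 0.91, 2.32 and -0.00, and C1qb 0.54, 1.62 and 0.82 at the 3 ages. Of 24 microglial genes 10 were higher at P30, with medians for the list of 0.20, 1.21 and 0.57 at P14, P17 and P30. Cholesterol synthesis genes had medians of -0.18, -0.38 and 0.09, and bipolar cell genes of -0.11, -0.41 and -0.05. Tests of the difference itself called 0 genes between P17 and P14 by edgeR (1698 at an unadjusted p under 0.05, 177 by DESeq2 and 1 by limma-voom). Between P17 and P30 the OIR effect was higher at P17 for 765 genes (3.84%) and lower for 1085 (5.45%). The P14 groups have 2 libraries each.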

How the data were processed

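Poly(A) RNA of mouse retina was sequenced on an Ion Proton. The deposited values are raw read counts per gene, made by the authors; per the labels' protocols the tools were Torrent Suite 5.4.0, STAR, Bowtie2, HTSeq and Picard with build mm10. Versions of the aligners, the annotation and the strand setting: not given in the sources used here. From these counts the 16 libraries were fitted together with edgeR 4.0.16 (R 4.3.3): filterByExpr over the 6 groups left 19905 of 43280 symbols, scaling was by TMM, the design held the group alone, and the robust quasi-likelihood test with Benjamini-Hochberg adjustment called genes at an adjusted p under 0.05. SE is the log2 fold change divided by the root of F. The spread rests on 10 residual degrees of freedom. Library totals at P17 were 27369064 to 41716971 counts; intervals on shares cover counting error only.

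Alternatives were RLE scaling, library totals, other count filters, DESeq2 1.42.0, limma-voom (limma 3.58.1), the P17 libraries alone, a replicate block, stricter thresholds, covariates for Y-linked RNA and lens share, and leaving out libraries. The scripts were tested on simulated data.

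The members and lists were chosen with earlier results of these data known. Some genes stand on several lists, so the counts of different lists are not independent. The genes that may be named were the largest changes (14 each way at 2 CPM or more, 8 each way at 100 CPM or more, without overlap), up to 6 members with the smallest p and 2 uncalled members per list, and 12 fixed genes. The text names a part of these, picked after their values were seen, mostly calls that held without each P17 library. Some further members are also named to show the limits of a list. Promoter windows are from RefSeq (GRCm38.p6, the same assembly as mm10). Results for some genes are not reported here.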

Additional observations from a re-analysis of the deposited data

Results flagged for a closer look

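The OIR effect at P17 and at P30 was compared with an interaction term in edgeR's quasi-likelihood fit, with Benjamini-Hochberg adjustment over all tested genes, for 10 of the always-named genes (Xist and Ddx3y left out). For 8 of them the effects differed; those of Gfap and Cdkn2a did not pass. The difference of log2 fold changes, P17 minus P30, was 4.04 for Igfbp3 (adjusted p = 5.02e-08), 5.47 for Esm1 (0.0357), 5.39 for Edn2 (0.00348), 2.44 for Apln (0.00122), 2.33 for Angpt2 (0.000505), 2.27 for Cdkn1a (0.000757) and 1.14 for Vegfa (0.00432). It was -0.69 for Nefh (adjusted p = 0.00403), which was lower in OIR by more at P17 than at P30. The P30 groups have 3 libraries each, and OIR replicate 2 at P30 had 0 reads of Ddx3y. P17 OIR differs from P17 control also in Y-linked RNA. The differences for these genes with the term for Y-linked RNA are not reported here, so its part in them stays unknown.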

How the results depend on the processing

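The counts of 1555 higher and 1345 lower genes stayed within 1.5 times under RLE scaling, library totals, both other count filters, DESeq2, limma-voom, the P17 libraries alone, the lens covariate and without lens genes. At an adjusted p under 0.01 there were 846 higher and 613 lower genes, and in a test against a 1.5-fold change 385 and 25. With OIR replicate 3 as the only OIR library there were 824 and 414, the lone library being assumed to vary like the other groups, and with the Y-linked covariate 205 and 84. Leaving out each P17 library in turn gave 1050 to 1297 higher and 737 to 1061 lower genes. The cause was not tested. A replicate block gave 1450 higher and 1267 lower genes. Same-numbered OIR and control libraries deviated from their group means with correlations of -0.418, 0.156 and -0.398. For OIR and control libraries of different numbers the correlations ran from -0.271 to 0.504. The labels do not say whether the numbers pair samples. Deviations within a group depend on each other, so these correlations cannot decide it. Under the Y-linked covariate the log2 fold change moved by more than 1.5 times for Casp8 (0.66), Ccl3 (1.52), Ddit3 (0.83), Elavl4 (-0.28), Fas (1.73), Notch3 (0.57), Tlr2 (0.89) and Top2a (1.23). Among the called genes the sign turned for 10 without the lens-rich OIR libraries (among them Aplnr, -0.06, and Cryab, -0.07; none was called there), for 1 under the lens covariate (Wnt7a, -0.20) and for 3 under the Y-linked covariate (Eif2s3y, 1.72; Kdm6a, -0.11; Tfpi2, -0.11; none called there). With 3 libraries a group, small changes and genes below a few reads could not be resolved.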
